A study of Mus musculus with 6 samples.

Results

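Mgmt, Rasd2, Cables1, Swap70 and Fpr2 are 5 genes that had less RNA in regulatory T cells whose copies of Blimp1 both carried a gfp allele than in cells that kept a working copy. They were chosen by their log2 difference between the genotypes on these same arrays, as clear losses, so that difference is described here without a test. All probes annotated to the 5 symbols were taken, which gave 10 of the 46632 probes of the array and 5 of the 8743 genes that could be tested. The collective name under which they were picked, non-immune genes, fits them only in part: Fpr2 is a receptor of phagocytes and Swap70 was described in B cells.

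The series compared regulatory T cells of Blimp1 +/gfp mice with those of Blimp1 gfp/gfp mice, in 3 samples each. By the labels the strain is C57/B6 and the tissue bone marrow, and no age, treatment or sort is stated. Both genotypes carry the gfp allele, so the comparison group has a gfp copy too and is not wild type. From general knowledge of the allele, cells with gfp in both copies lack functional Blimp-1. Each sample was hybridised to an Illumina array of its own, and values are normalized log2 intensities, on which a difference of 1 is a doubling. A probe was called detected on an array where its deposited detection p was under 0.05.

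Blimp-1, the product of Prdm1, is a DNA-binding repressor that guides the last steps of plasma cell and effector T cell differentiation, and in regulatory T cells it is known for marking the effector state. The 5 genes work in separate pathways. MGMT removes alkyl groups from guanine in DNA by transferring them to itself. RASD2, also called Rhes, is a small GTPase of the Ras family best known from the striatum. CABLES1 links cyclin-dependent kinases to tyrosine kinases such as ABL. SWAP-70 binds phosphoinositides and acts on Rac and actin, and FPR2 is a G protein-coupled receptor for formyl peptides, serum amyloid A and annexin A1.

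Markers of the labelled cells were present. Foxp3, which defines the lineage, was detected on all 6 arrays at 11.44 to 12.66, and 13 of 13 T cell and regulatory T cell markers were detected on every array. Markers of other cells were detected on all 6 too, such as Cd8b1, which encodes a CD8 chain, at 11.13 to 12.03. Cd4 was at 9.34 to 10.24. On the brighter Prdm1 probe the levels were 5.76, 5.82 and 5.50 in Blimp1 +/gfp and 7.14, 7.75 and 7.54 in Blimp1 gfp/gfp. No source used here places that probe relative to the gfp insert, so it checks nothing about the labels. Between 31.5% and 34.5% of probes were detected per array. Blimp1 +/gfp replicate 3 stood apart in its markers of other cells. The summed normalized intensity of 15 phagocyte and granulocyte markers was 32530 there and 3959 to 7162 on the other 5 arrays. That of 10 dendritic cell and antigen presentation markers was 76400 there and 13240 to 22750 on the other 5. The genotypes also differed in sex-linked RNA. Eif2s3y, a Y-linked gene, was detected throughout Blimp1 +/gfp (3 arrays) and nowhere in Blimp1 gfp/gfp, while Xist, made from the inactive X chromosome, was detected on 2 and 3 arrays. Each genotype had a BeadChip to itself. Genotype, BeadChip and the presence of Y-linked RNA therefore cannot be told apart. Sex-linked RNA also varied within Blimp1 +/gfp. Replicates 1 and 2 held both Eif2s3y (10.49 and 10.53) and Xist (9.69 and 9.20), and replicate 3 had no detected Xist. Whether the samples of a genotype are separate animals is not labelled, and every p-value below measures a spread between samples that may be technical. In bulk samples, fewer cells of a type and less RNA per cell cannot be told apart.

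Mgmt, the DNA repair methyltransferase, had the tightest values of the 5 within Blimp1 +/gfp. Its brightest probe, ILMN_1232183, read 10.60, 10.68 and 10.84 in Blimp1 +/gfp and 6.56, 6.18 and 6.29 in Blimp1 gfp/gfp. The lowest Blimp1 +/gfp array stood far above the highest Blimp1 gfp/gfp array. The means were 10.70 ± 0.12 and 6.34 ± 0.19 (SD, n = 3), a log2 difference of -4.36 ± 0.16 (SE), or 20.6-fold lower in Blimp1 gfp/gfp. Before normalization the same probe gave intensities of 1710.5, 1788.4 and 1577.2 against 223.3, 218.2 and 213.2. Mgmt RNA was low but above background in Blimp1 gfp/gfp, with detection p of 0.00561, 0.00998 and 0.00936. Its log2 difference was -3.05 without background correction.

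Rasd2, the Ras-like GTPase, had the widest spread within Blimp1 +/gfp. Its levels on ILMN_1223875 were 11.04, 10.94 and 8.35 in Blimp1 +/gfp and 5.26, 5.38 and 5.95 in Blimp1 gfp/gfp. Blimp1 +/gfp replicate 3 was the low array of its group, yet it lay above all 3 Blimp1 gfp/gfp arrays. The means were 10.11 ± 1.52 and 5.53 ± 0.37 (SD, n = 3), a log2 difference of -4.58 ± 0.70 (SE), and it was -5.51 without Blimp1 +/gfp replicate 3. Only 1 of the 3 Blimp1 gfp/gfp arrays detected Rasd2, so the size of the difference is uncertain.

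Cables1, the adaptor of cyclin-dependent kinases, had the same order of arrays as Rasd2 within Blimp1 +/gfp, though not within Blimp1 gfp/gfp. ILMN_1217097 read 10.57, 10.42 and 8.56 in Blimp1 +/gfp and 6.61, 6.31 and 6.48 in Blimp1 gfp/gfp. Again Blimp1 +/gfp replicate 3 was the low array of its group, and the genotypes did not overlap. From 9.85 ± 1.12 to 6.47 ± 0.15 (SD, n = 3) the log2 difference was -3.38 ± 0.51 (SE), or 10.4-fold, and it was -4.07 without Blimp1 +/gfp replicate 3. Cables1 was detected on all 6 arrays, and its log2 difference was -2.27 without background correction.

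Swap70, the Rac-binding adaptor, was reduced rather than lost. ILMN_2765524 read 10.45, 10.66 and 10.86 in Blimp1 +/gfp and 9.94, 9.24 and 9.39 in Blimp1 gfp/gfp, and every array detected it. The groups did not overlap, and Blimp1 gfp/gfp replicate 1 lay nearest to the Blimp1 +/gfp arrays. The means were 10.66 ± 0.20 and 9.52 ± 0.37 (SD, n = 3), a log2 difference of -1.13 ± 0.22 (SE), or 2.19-fold.

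Fpr2, the formyl peptide receptor, ran the other way within Blimp1 +/gfp. ILMN_1242457 read 7.94, 8.35 and 10.25 there and 6.15, 5.02 and 4.84 in Blimp1 gfp/gfp. Blimp1 +/gfp replicate 3, the low array for Rasd2 and Cables1, was the high array for Fpr2. The means were 8.85 ± 1.23 and 5.33 ± 0.71 (SD, n = 3), a log2 difference of -3.51 ± 0.64 (SE), and it was -2.83 without Blimp1 +/gfp replicate 3. Of the Blimp1 gfp/gfp arrays only replicate 1 detected Fpr2 (detection p 0.0187), so this size is uncertain too.

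**Figure D1:**
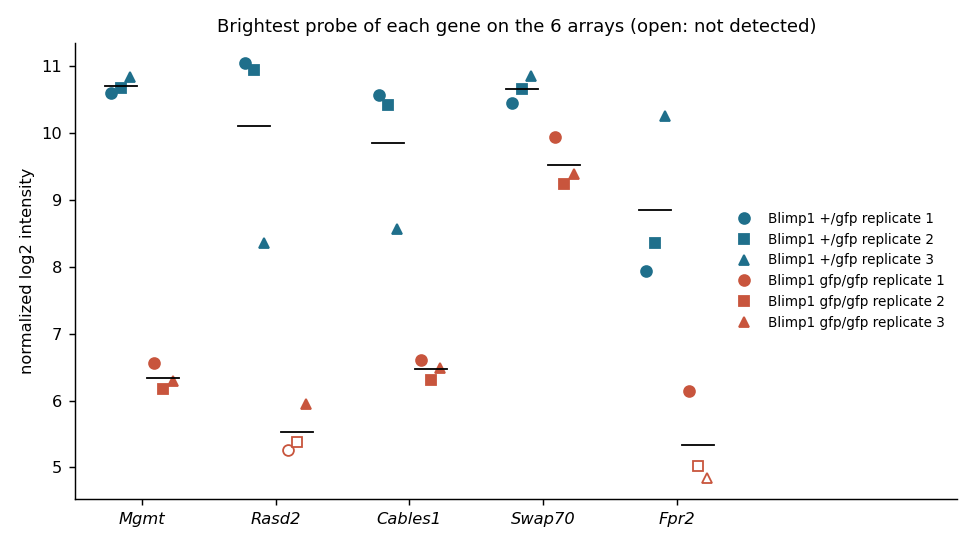
Normalized log2 intensity (vertical axis) of the brightest probe of each gene on the 3 Blimp1 +/gfp and 3 Blimp1 gfp/gfp arrays. Bars are group means, symbols mark replicates and open symbols are arrays where the probe was not detected. Swap70 keeps levels of 9.24 to 9.94 in Blimp1 gfp/gfp, while Blimp1 +/gfp replicate 3 is low for Rasd2 and Cables1 and high for Fpr2.

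Against the whole array, 4 of the 5 were among the most reduced genes and Swap70 was not. Of 8743 genes tested, 10 (0.114%) were at least 8-fold lower in Blimp1 gfp/gfp, and Rasd2, Mgmt, Fpr2 and Cables1 were among them as measured. For Rasd2 and Fpr2 that rests on Blimp1 gfp/gfp values mostly at background, and Fpr2 was less than 8-fold lower without Blimp1 +/gfp replicate 3 (-2.83). Rasd2, Cables1 and Fpr2 were less than 8-fold lower without background correction (-2.88, -2.27 and -1.95), and Mgmt stayed past 8-fold (-3.05). Swap70 was among the 254 genes (2.91%) at least 2-fold lower. For all 5 the genotypes stood apart without overlap, in the direction of the choice, while 909 of the tested genes (10.4%) were lower without overlap. These counts describe the choice and support nothing about the 5 genes. All 5 passed the filter on dim probes, which asked for detection on at least 3 of the 6 arrays, and Rasd2 and Fpr2 passed it through the Blimp1 +/gfp arrays, where they were high.

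The further probes of these genes did not all repeat the loss. Mgmt had 2 probes, Cables1 2, Swap70 4, and Rasd2 and Fpr2 1 each. Of the 10 probes, 7 passed the filter, 4 were detected on all 6 arrays and 3 were detected on none. Lower values without overlap were seen on 6 of the 10. The second Mgmt probe, ILMN_2750079, was not detected on any array and stayed between 4.94 and 5.56. The second Cables1 probe, ILMN_1216100, was likewise not detected on any array, at 4.66 to 5.09. For Mgmt and Cables1, therefore, the loss was read from 1 probe each. Where these probes lie in their transcripts was not used here.

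Swap70 was the only one of the 5 with more than 1 probe detected on all arrays. Its second such probe, ILMN_2727273, read 8.91, 8.92 and 8.89 in Blimp1 +/gfp and 8.32, 7.56 and 7.32 in Blimp1 gfp/gfp. The log2 difference of that probe, -1.17, was close to the -1.13 of the brightest, and on both probes Blimp1 gfp/gfp replicate 1 was the highest array of its genotype. ILMN_1231843, annotated to another cDNA record, was detected on 1 Blimp1 +/gfp array and 2 Blimp1 gfp/gfp arrays and differed by 0.04. ILMN_1224627 was not detected on any array. With a mean over the 3 probes that passed the filter, the log2 difference of Swap70 was -0.75.

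The spread within Blimp1 +/gfp set Rasd2, Fpr2 and Cables1 apart from Mgmt and Swap70. The SD over the 3 Blimp1 +/gfp arrays was 1.52 for Rasd2, 1.23 for Fpr2 and 1.12 for Cables1. Of all genes tested, 0.881%, 1.35% and 1.58% had a larger SD there. For Mgmt the SD was 0.12, with 79.2% of genes above it, and for Swap70 it was 0.20, with 56.4% above it. Blimp1 +/gfp replicate 3 made the 3 large SDs, since replicates 1 and 2 differed by little for Rasd2 (11.04 and 10.94), Cables1 (10.57 and 10.42) and Fpr2 (7.94 and 8.35). In Blimp1 gfp/gfp the SD was 0.37 for Rasd2, 0.15 for Cables1 and 0.71 for Fpr2. Blimp1 +/gfp replicate 3 also had the largest sums of phagocyte and of antigen presentation markers. It was the 1 array without detected Xist, at 5.52 against 9.69 and 9.20 in replicates 1 and 2. The parts of other cells and of sex in the deviation of replicate 3 were not tested.

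**Figure D2:**
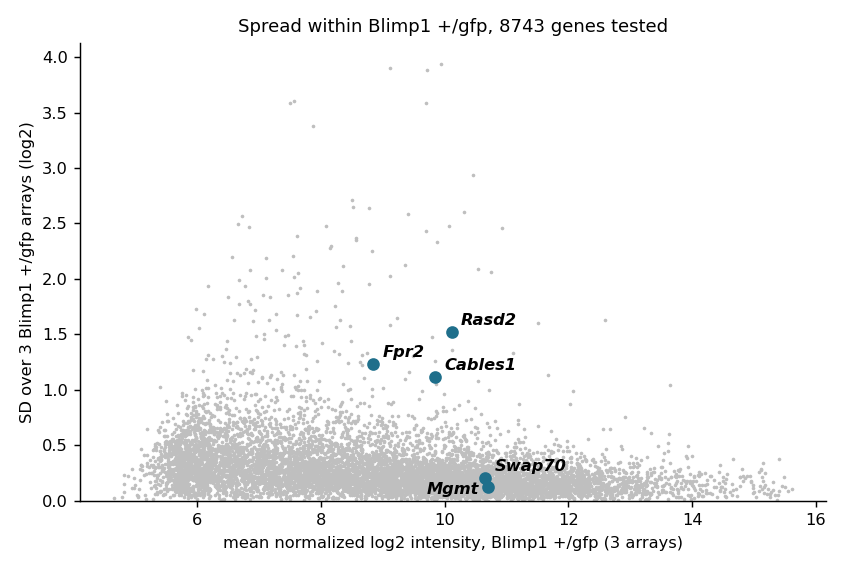
SD over the 3 Blimp1 +/gfp arrays (vertical axis, log2 units) against their mean normalized log2 intensity (horizontal axis) for 8743 genes, with the 5 genes marked. Rasd2, Fpr2 and Cables1 lie above most genes of like level, at SDs of 1.12 to 1.52, and Mgmt and Swap70 within the bulk, at 0.12 and 0.20.

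Fpr2 is known from neutrophils and macrophages, so its levels are set beside the markers of those cells. Of 28 phagocyte and granulocyte markers on the array, the 3 Blimp1 +/gfp arrays detected 12, 18 and 20, while the Blimp1 gfp/gfp arrays detected 13, 12 and 11. Their summed normalized intensity, over the 15 that were tested, was 3959, 5451 and 32530 in Blimp1 +/gfp and 7162, 4621 and 4112 in Blimp1 gfp/gfp. The groups overlapped in this sum, and the array with the most, Blimp1 +/gfp replicate 3, was also the array with the most Fpr2. Elane and Prtn3, proteases of neutrophil granules, Itgam, an integrin of myeloid cells, and Cebpe, Clec4d and Ms4a3 were not detected on any array.

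Single markers differed in how they ran beside Fpr2. Of the 15 tested, 1 passed in limma, and it rose: Cebpa, which drives myeloid differentiation, went from 8.96 ± 0.56 to 11.33 ± 0.11 (SD, n = 3; limma FDR = 0.00872). The median log2 difference of the 15 was -1.88, with 11 below 0. Fcer1g, an Fc receptor chain, was 8.98, 9.73 and 12.91 in Blimp1 +/gfp and 9.01, 8.05 and 7.80 in Blimp1 gfp/gfp. Lyz2, the lysozyme of macrophages, was 10.29, 10.55 and 10.94 against 10.28, 7.35 and 7.16. Within each genotype the array with the most Fcer1g and the most Lyz2 had the most Fpr2. Other markers ran differently: Lyz1, Ltf, Camp and Mpo were lowest of Blimp1 +/gfp in replicate 3 (7.60, 5.73, 5.84 and 4.97). Blimp1 gfp/gfp replicate 1 had about as much Fcer1g and Lyz2 as Blimp1 +/gfp replicate 1, at an Fpr2 level of 6.15 against 7.94. S100a8, an abundant neutrophil transcript, was not detected in Blimp1 +/gfp replicate 1, where Fpr2 was detected. The part of these cells in the Fpr2 difference was not tested.

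**Figure D3:**
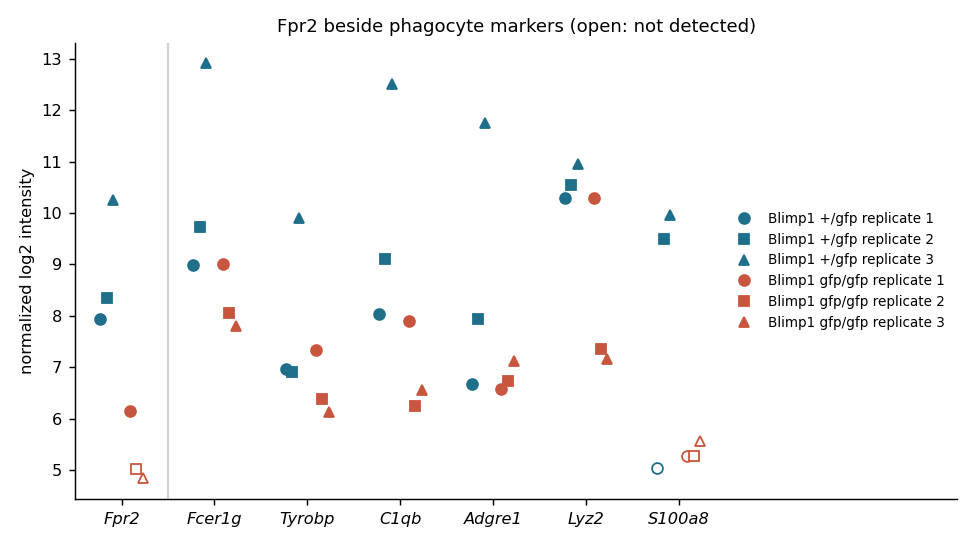
Normalized log2 intensity (vertical axis) of Fpr2 and of 6 phagocyte markers on the 6 arrays, with open symbols where a gene was not detected. Blimp1 +/gfp replicate 3 is the highest array for Fpr2 (10.25) and for each of the 6 markers shown. Blimp1 gfp/gfp replicate 1 is the highest of its genotype for Fpr2 and Lyz2. The 6 are a choice from the 28 markers. Lyz1, Ltf, Camp and Mpo, which are not shown, were lowest of Blimp1 +/gfp in replicate 3.

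Swap70 is abundant in B cells, so their markers are given beside it. Of 7 tested, 1 passed in limma, Pou2af1, a transcriptional coactivator of B cells, which rose from 8.16 ± 0.51 to 10.62 ± 0.24 (SD, n = 3; limma FDR = 0.00744). Cd79a, a chain of the B cell receptor, was 5.15, 5.36 and 7.30 in Blimp1 +/gfp, where it was detected on 1 array, and 8.53, 7.35 and 7.64 in Blimp1 gfp/gfp, where it was detected on 3. The summed intensity of the 7 was 1517 to 3488 in Blimp1 +/gfp and 3126 to 5432 in Blimp1 gfp/gfp, so the groups overlapped. Of 12 such markers on the array, 6 to 7 were detected per Blimp1 +/gfp array and 7 to 9 per Blimp1 gfp/gfp array, and Pax5, the defining factor of the B lineage, and Sdc1, a plasma cell marker, were not detected on any. The part of B cells in the Swap70 difference was not tested.

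Promoter sequence was read for 4 of the genes from RefSeq windows of GRCm38.p6, to show how unlike they are. Each line gives the 250 bases before a transcript start, with every CG dinucleotide in capitals, the site of DNA methylation that silences MGMT in human tumours.
Mgmt, chr7:136894336-136894585, plus strand: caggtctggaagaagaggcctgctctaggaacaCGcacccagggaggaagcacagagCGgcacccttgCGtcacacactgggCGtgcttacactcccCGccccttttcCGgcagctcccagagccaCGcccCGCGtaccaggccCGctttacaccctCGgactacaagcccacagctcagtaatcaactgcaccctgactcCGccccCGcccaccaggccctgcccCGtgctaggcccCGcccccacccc
Rasd2, chr8:75213694-75213943, plus strand: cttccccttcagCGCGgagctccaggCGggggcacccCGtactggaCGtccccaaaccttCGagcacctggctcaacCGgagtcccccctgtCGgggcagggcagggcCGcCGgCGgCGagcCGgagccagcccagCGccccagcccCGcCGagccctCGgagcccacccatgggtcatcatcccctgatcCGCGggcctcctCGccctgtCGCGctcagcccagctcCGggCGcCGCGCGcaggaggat
Swap70, chr7:110221453-110221702, plus strand: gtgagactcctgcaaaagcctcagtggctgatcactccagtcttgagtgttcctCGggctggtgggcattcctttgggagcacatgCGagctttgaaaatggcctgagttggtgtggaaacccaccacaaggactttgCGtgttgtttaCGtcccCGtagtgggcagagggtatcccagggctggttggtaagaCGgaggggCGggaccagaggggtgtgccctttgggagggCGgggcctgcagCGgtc
Fpr2, chr17:17887574-17887823, plus strand: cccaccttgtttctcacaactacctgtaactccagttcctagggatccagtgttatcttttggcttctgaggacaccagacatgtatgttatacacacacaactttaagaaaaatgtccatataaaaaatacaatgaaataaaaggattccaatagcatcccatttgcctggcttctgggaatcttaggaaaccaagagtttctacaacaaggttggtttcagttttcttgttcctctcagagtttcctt

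The Rasd2 window held 27 CG dinucleotides and 75.2% G and C, the Mgmt window 15 and 67.2%, the Swap70 window 9 and 59.6%, and the Fpr2 window 0 and 38.8%. Over 32851 such windows the medians were 6 and 52.4%. The window of a second Mgmt start held 2 and 51.6%, so Mgmt had 1 start in CG-rich sequence and 1 outside it. The core of the known Blimp-1 consensus, AGNGAAAG, was sought on both strands and found in none of them, while 7.30% of all windows hold it. The shorter run GAAAG, which the longer motif contains, is in 51.5% of all windows. Of the member windows only that of the second Mgmt start held it, with 3 matches on the other strand, of which the first and second overlap by a base. They stand in capitals, as CTTTC on the strand shown, in this stretch.
Mgmt second start, chr7:136912947-136913041, plus strand: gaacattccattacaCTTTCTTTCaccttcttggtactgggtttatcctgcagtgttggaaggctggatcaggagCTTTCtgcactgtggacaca
These matches are a description of letters and not of binding.

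The 5 genes lie on chromosomes 7 (Mgmt and Swap70), 8 (Rasd2), 17 (Fpr2) and 18 (Cables1), and Prdm1 lies on chromosome 10. The nearest tested genes on both sides of each, in the gene order of GRCm38.p6, were looked up after the members' values were seen. Of these 10 neighbours, 0 passed (limma, lowest adjusted p = 0.151). Without adjustment, 3 were higher and 0 lower at p under 0.05, beside 988 (11.3%) and 631 (7.22%) of all genes tested. Their log2 differences ran from -0.61 to 0.94. Ptpre and Glrx3, the neighbours of Mgmt, differed by 0.34 ± 0.15 and 0.49 ± 0.16 (SE), against -4.36 for Mgmt.

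Other genes of the pathways were tested next, in limma over all 8743 genes, with p adjusted by Benjamini-Hochberg over all of them (limma FDR). Of these genes, 360 (4.12%) passed at an FDR under 0.05, 212 (2.42%) higher and 148 (1.69%) lower in Blimp1 gfp/gfp. In 5 lists of relatives, 85 of the 114 genes on the array were tested and 5 passed, 3 of them higher and 2 lower, which is 5.88% and near the share of all genes. The median log2 difference of the 85 was -0.04, and that of all tested genes 0.03. Leaving out Blimp1 +/gfp replicate 1 or 2 turned the count of 5 into 1 and 2, and leaving out Blimp1 gfp/gfp replicate 2 or 3 turned it into 1. With a minimum log2 difference of 1 it was 0. The counts over all genes were 71, 92, 126 and 97 with the same omissions, and 183 without Blimp1 gfp/gfp replicate 1.

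Around Mgmt, 0 of 14 tested genes of alkylation, mismatch and base excision repair passed (limma), and their median log2 difference was 0.21. Without adjustment, 1 was higher and 0 were lower at p under 0.05. Msh3, a mismatch recognition subunit, differed by 0.46 ± 0.16 (SE; limma FDR = 0.185). Rpa1, which coats single-stranded DNA, differed by 0.30 ± 0.15 (limma FDR = 0.361). Mgmt itself, the direct-reversal enzyme, is not counted in this list.

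Around Rasd2, 1 of 13 tested Ras family genes and partners passed. Rap2a, a Ras-like GTPase, read 8.79, 8.37 and 7.97 in Blimp1 +/gfp and 6.84, 6.38 and 7.05 in Blimp1 gfp/gfp. It fell by 1.62 ± 0.26 (SE) on the log2 scale (limma FDR = 0.0235, and 0.0134 to 1 over the alternatives). Its call ended in 5 of 6 omissions of an array (that of Blimp1 +/gfp replicate 3 kept it) and with a mean over probes (-0.86), and its size was -0.94 without background correction. Rasd1, the nearest relative of Rasd2, was not detected on any array.

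Around Cables1, 2 of 15 tested genes passed, both higher in Blimp1 gfp/gfp. Cdk5r1, which encodes the p35 activator of CDK5, a kinase that CABLES1 binds, was 9.38 ± 0.16 in Blimp1 +/gfp against 11.20 ± 0.19 in Blimp1 gfp/gfp (SD, n = 3). It rose by 1.82 ± 0.16 (SE; limma FDR = 0.00568), and it passed in all 6 omissions of an array. Trp73, a relative of p53, rose by 1.19 ± 0.20 (limma FDR = 0.0275), was detected on 1 Blimp1 +/gfp array, and passed in 1 of 6 omissions, that of Blimp1 +/gfp replicate 2. Without background correction Trp73 differed by 0.47 (limma FDR = 0.0568). Cables2, the paralogue of Cables1, went from 8.55 ± 0.21 to 8.95 ± 0.10 (SD, n = 3), which is 0.40 ± 0.16 (SE) more in Blimp1 gfp/gfp and did not pass (limma FDR = 0.243).

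Around Swap70, 2 of 27 tested genes passed, in opposite directions, and the one that rose is described. Tiam1, an exchange factor that activates Rac, rose from 12.59 ± 0.19 to 13.74 ± 0.13 (SD, n = 3; limma FDR = 0.0142). Def6, the closest relative of Swap70, was 11.79 ± 0.12 and 11.75 ± 0.16 (SD, n = 3), a difference of -0.04 ± 0.15 (SE; limma FDR = 0.937), and 0.12 with median scaling. Tiam1 passed in 2 of 6 omissions, those of Blimp1 +/gfp replicate 3 and Blimp1 gfp/gfp replicate 1.

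Around Fpr2, 0 of 16 tested genes passed (limma), and their median log2 difference was -0.35. Taken without adjustment, 7 were lower at p under 0.05 and 0 were higher, beside 7.22% and 11.3% of all genes. Plcb2, a phospholipase C that such receptors activate, differed by -0.72 ± 0.16 (SE; limma FDR = 0.0581, and 0.0465 with cyclic loess). Anxa1, which encodes the ligand annexin A1, differed by -1.39 ± 0.36 (limma FDR = 0.0905), and by -0.61 without background correction. Fpr-rs3, Fpr-rs4 and Fpr-rs6, the other receptors of the family among the annotated probes, were not detected on any array. In Blimp1 +/gfp replicate 3, where the phagocyte marker sum was highest, Plcb2 was highest of its group (8.57) and Anxa1 lowest (6.73). The part of phagocytes in the differences of these genes was not tested.

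**Figure D4:**
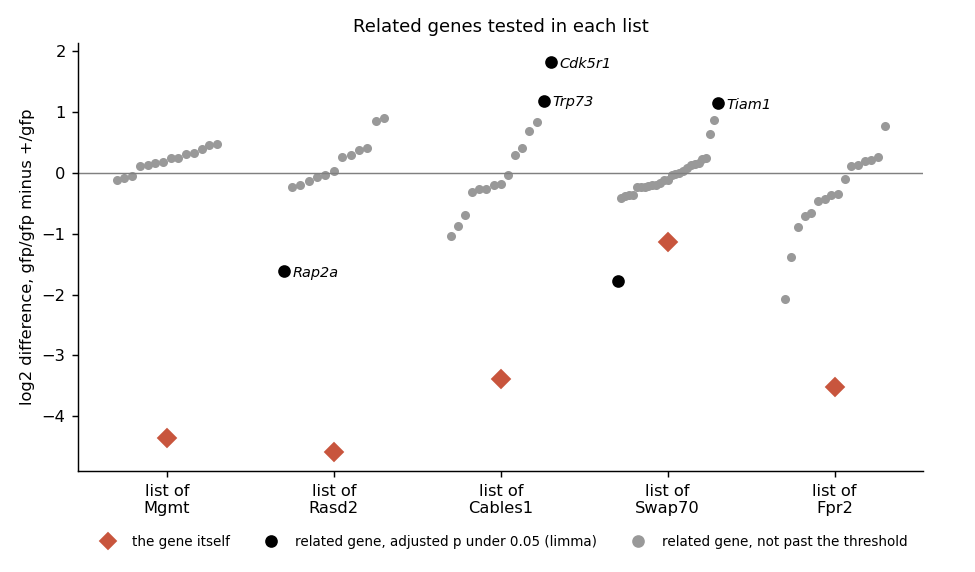
Log2 difference, Blimp1 gfp/gfp minus Blimp1 +/gfp (vertical axis), of the tested genes in each list of relatives, sorted by size within the list, with black points past the threshold in limma and red diamonds for the gene that names the list. The diamonds of Mgmt, Rasd2, Cables1 and Fpr2 lie below every relative in their lists, and that of Swap70 does not.

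The genes most like each of the 5 over the 6 arrays were found by the root mean square difference of their log2 values, each gene centred on its own mean, with other members passed over. This describes shape and size together, and the difference between the genotypes makes up most of it. Mgmt was closest to Il10, a suppressive cytokine (0.30), Mmp9, a matrix metalloproteinase (0.32), and Kdm5d, a Y-linked histone demethylase (0.54). Kdm5d was 7.94, 8.30 and 8.49 in Blimp1 +/gfp, and no Blimp1 gfp/gfp array detected it, so it was at least 5.80-fold lower, counting each dim array at no less than the lowest level of a detected probe. Mgmt is not on a sex chromosome, and the part of the animals' sex in its difference was not tested.

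Rasd2 and Cables1 were the closest pair among the 5 (0.69), followed by Mgmt and Fpr2 (0.83). Havcr2 and Il12rb2 were among the 3 closest genes of both Rasd2 and Cables1. Cables1 was closest to Havcr2, the gene of TIM-3, an inhibitory receptor (0.33), Crem, a cAMP-responsive transcription factor (0.38), and Il12rb2, a chain of the IL-12 receptor (0.43). Rasd2 was closest to Il10 (0.83), Havcr2 (0.93) and Il12rb2 (0.96), which are looser matches. Havcr2 was 9.52 in Blimp1 +/gfp replicate 3, at least 10.93 in the other 2 replicates, and 7.35, 7.62 and 7.67 in Blimp1 gfp/gfp, so it had the same low replicate 3. Il12rb2 read 9.28, 9.03 and 7.01 against 5.45, 5.62 and 6.19, again lowest of its group in Blimp1 +/gfp replicate 3. Its difference of -2.69 ± 0.59 (SE) did not pass (limma FDR = 0.0577). Intensities of 6 CD8 T and NK cell markers were summed too, and the sums did not overlap between genotypes. They were 18960 to 23170 in Blimp1 +/gfp and 6776 to 15790 in Blimp1 gfp/gfp. Most of each sum came from Nkg7, the brightest of the 6, at 13.89, 14.21 and 13.93 against 12.88, 11.97 and 13.56. Single markers were mixed: 4 of the 6 had differences below 0, Cd8b1 by only -0.14, while Eomes and Klrb1c were higher (0.78 and 0.59). In limma 0 of the 6 passed (2 were lower and 0 higher before adjustment, at p under 0.05). Of the 9 such markers on the array, Ncr1, Klra8 and Gzma were not detected on any of the 6 arrays. In contrast, 4 were detected on all 6, Klrb1c and Cd8b1 among them. The sums of the 13 T cell and regulatory T cell markers did not overlap either, at 138800 to 150600 against 105900 to 138000. Of all single genes tested, 909 (10.4%) were lower without overlap. Among the 13 markers 1 passed, Tnfrsf18, which encodes GITR and fell by 1.11 (limma FDR = 0.0242). The part of these cells in the differences of Rasd2 and Cables1 was not tested.

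Swap70 was closest to Prxl2a, a peroxiredoxin-like protein (0.10), Gsto1, a glutathione transferase (0.13), and Gkap1, an anchoring protein of the cGMP-dependent kinase (0.15). Gsto1 read 10.28, 10.51 and 10.54 in Blimp1 +/gfp and 9.56, 9.05 and 8.87 in Blimp1 gfp/gfp, where replicate 1 was the highest, as for Swap70. Gkap1 was not detected on any Blimp1 gfp/gfp array and was at least 1.82-fold lower there.

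Fpr2 was closest to Cxcl9, an interferon-induced chemokine (0.59), Fcgr2b, an inhibitory Fc receptor of myeloid and B cells (0.68), and C2cd4a (0.70). Cxcl9 read 9.37, 9.96 and 10.72 in Blimp1 +/gfp and 8.31, 5.70 and 5.70 in Blimp1 gfp/gfp. It was highest in Blimp1 +/gfp replicate 3 and, within Blimp1 gfp/gfp, in replicate 1, the same arrays as Fpr2 and Lyz2. Fcgr2b read 8.14, 8.41 and 9.20 in Blimp1 +/gfp and 6.08, 5.57 and 6.06 in Blimp1 gfp/gfp.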

How the data were processed

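RNA of 3 Blimp1 +/gfp and 3 Blimp1 gfp/gfp samples was amplified, labelled with Cy3 and hybridised to Illumina arrays, per the labels. The tools named in the submitters' processing notes are BeadStudio and limma, with versions not given in the sources used here. The deposited table holds a mean bead intensity per probe and array, not background-subtracted or normalized (column medians 157.4 to 164.8). Per the file headers it also gives a detection p-value for each. The authors' deposited log2 values differed from the values computed here by at most 0.0975 and served as an alternative.

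Intensities were processed with neqc (limma 3.58.1, R 4.3.3, offset 16). Its offset compresses dim values, while its background correction widens differences. Without that correction the difference was -3.05 against -4.36 for Mgmt and -1.95 against -3.51 for Fpr2. Probes detected (p under 0.05) on at least 3 arrays were kept, and each gene was represented by its brightest. Genotypes were compared with limma's lmFit and eBayes, and p was adjusted over 8743 genes by Benjamini-Hochberg. Negative differences mean less RNA in Blimp1 gfp/gfp. Symbols came from the platform annotation, which gives 1 symbol for 29976 probes. The code was tested on simulated data.

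The 5 genes and all lists were chosen with earlier results of these data known. Named genes were all probes of the 5, their nearest family members, called relatives or else the 2 with the smallest p per list (1 called relative of Swap70 is not reported here), the 3 most alike genes per member (unnamed clones passed over), and markers. The 3 arrays per genotype limit the precision. Alternatives were other background corrections, normalizations, filters, probe summaries, variance models, a minimum difference, a replicate block, the deposited log2 values and the omission of each array.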

Additional observations from a re-analysis of the deposited data

How the results depend on the processing

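All 5 genes were lower in Blimp1 gfp/gfp under each of the 6 other settings run for them and in each omission of an array. Without background correction the log2 differences shrank to -3.05 (Mgmt), -2.88 (Rasd2), -2.27 (Cables1) and -1.95 (Fpr2), and with an offset of 50 that of Mgmt was -3.88. A mean over probes gave -0.75 for Swap70. Over the omissions they ranged from -4.44 to -4.28 (Mgmt), -5.51 to -4.12 (Rasd2), -4.07 to -3.01 (Cables1), -1.33 to -0.99 (Swap70) and -3.97 to -2.83 (Fpr2). With median scaling the SD of Mgmt within Blimp1 +/gfp was 0.0564. That scaling moved the median difference of all genes from 0.03 to 0.16 and the share of higher calls from 58.9% to 70.0%, and turned Def6 to 0.12. Def6 also turned without Blimp1 +/gfp replicate 1 (0.0216) and Blimp1 gfp/gfp replicate 3 (0.0258), with omissions ranging from -0.1256 to 0.0258. The calls over all genes and among relatives were 24 and 0 with a minimum log2 difference of 1, 71 to 347 and 1 to 5 over the omissions, and 171 and 3 with the replicate block, under which the call of Rap2a ended. Deviations of same-numbered arrays correlated at 0.189, -0.076 and 0.001 over genes, and 1 of 3 Blimp1 +/gfp arrays correlated best with its own number. With 3 arrays per genotype, these values cannot decide whether same-numbered samples share more than a number. A BeadChip block could not be fitted, since each chip held 1 genotype. The cause of these changes was not tested. Signal near background limits the sizes for Rasd2 and Fpr2. Those of Mgmt and Cables1, which were low though detected in Blimp1 gfp/gfp, depended on the background correction too.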
